A study of Mus musculus with 12 samples.

Results

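Mutant and control striatum at 13 weeks of age were compared across all genes on 6 of the 12 arrays of the study, chosen by the age and genotype that the sample titles give. The 3 mutant mice carried the TIF-IAD1RCre mutation, in which Cre under control of the D1 dopamine receptor gene deletes TIF-IA, and the 3 controls were labelled only as control, with no word on alleles they might share with the mutants. All were C57Bl/6 mice, 1 array was made for each mouse, and the titles call the mice of a group biological replicates. The other 6 arrays, 3 mutants and 3 controls at 9 weeks, entered the estimate of the spread and gave the effect at the earlier age. The series text gives both 5 arrays and 3 mice as the size of a condition, and 3 arrays per group were analysed. The D1R-Cre driver is meant to act in neurons that carry the D1 receptor, and so to spare neurons of the D2 class and glia. Which cells lost the gene was not measured here. The labels name medium spiny neurons as the cell type, but the RNA was not that of 1 cell type: in the controls the myelin gene Mbp lay between 14.53 and 14.57 on the log2 scale and the glial lipid carrier gene Apoe between 13.11 and 13.58, beside 13.71 to 13.90 for Penk, a peptide gene of medium spiny neurons.

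TIF-IA, encoded by Rrn3, lets RNA polymerase I start transcription of the ribosomal RNA genes, and nucleoli fall apart when it is lost. Medium spiny neurons, which release GABA and make up most neurons of the striatum, form a class that carries D1 receptors and substance P and a class that carries D2 receptors and enkephalin. Astrocytes and microglia respond to damaged neurons by turning on intermediate filament, protease inhibitor, phagocytic, complement and interferon-stimulated genes.

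Control mouse 3 stood apart. On its array 1701 genes lay more than 1 log2 from the mean of the other controls, against 412 and 241 genes for control mice 1 and 2, and the root mean square distance over genes was 0.86 and 0.80 from that array to the other controls, while those lay 0.32 apart. Its mean of the 18S ribosomal RNA control probe sets was 8.20, against 5.95 and 5.22 in the other controls and 4.50 to 5.03 in the mutants. It was also the only female control by Xist and Eif2s3y, while all 3 mutants were female and control mice 1 and 2 were male, so that genotype and sex are partly tied. Control mouse 1 had high values of the thalamic markers Slc17a6 (7.08) and Calb2 (8.0). Without control mouse 3 the test across all genes gave 3948 calls in place of 3744, of which 3366 were called the same way in both. With sex as a term there were 3841 calls, 3360 of them shared, and the 3 mutants against the female control alone gave 4800, of which 3164 were shared.

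Across the 8253 genes tested, 45.4% passed limma's test at an adjusted p under 0.05, with 23.4% higher and 21.9% lower in mutants, and these shares are the background for every count of list members below. In 54.6% of the genes the 3 mutants and the 3 controls did not overlap. The rises were larger than the falls: 204 genes rose by at least 3 log2 and 30 fell by as much, and at 5 log2 the numbers were 43 and 1. Of the genes that rose, 208 had no control array above the 40th percentile of its array, the level used to filter dim genes, and 77 of those that fell had no mutant array above it. GCRMA values are compressed there, so for such genes a fold of "at least" is given, in which array values under the percentile are replaced by it, and a difference printed beside it is that of the measured values. Among genes above the percentile on all 6 arrays, 99 rose and 21 fell by at least 3 log2, and 17 and 0 by at least 5 log2. A gene that passed the filter only through the 3 mutants at 13 weeks, with fewer than 3 of the other 9 arrays above the percentile, could hardly be called anything but higher. There were 234 such genes, of which 208 rose, and without them and 49 that passed only through the controls the shares were 21.6% higher and 22.5% lower. Centring every array on its median moved the median difference from 0 to -0.16 and the split from 1933 higher and 1811 lower to 1560 and 2384.

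**Figure D1:**
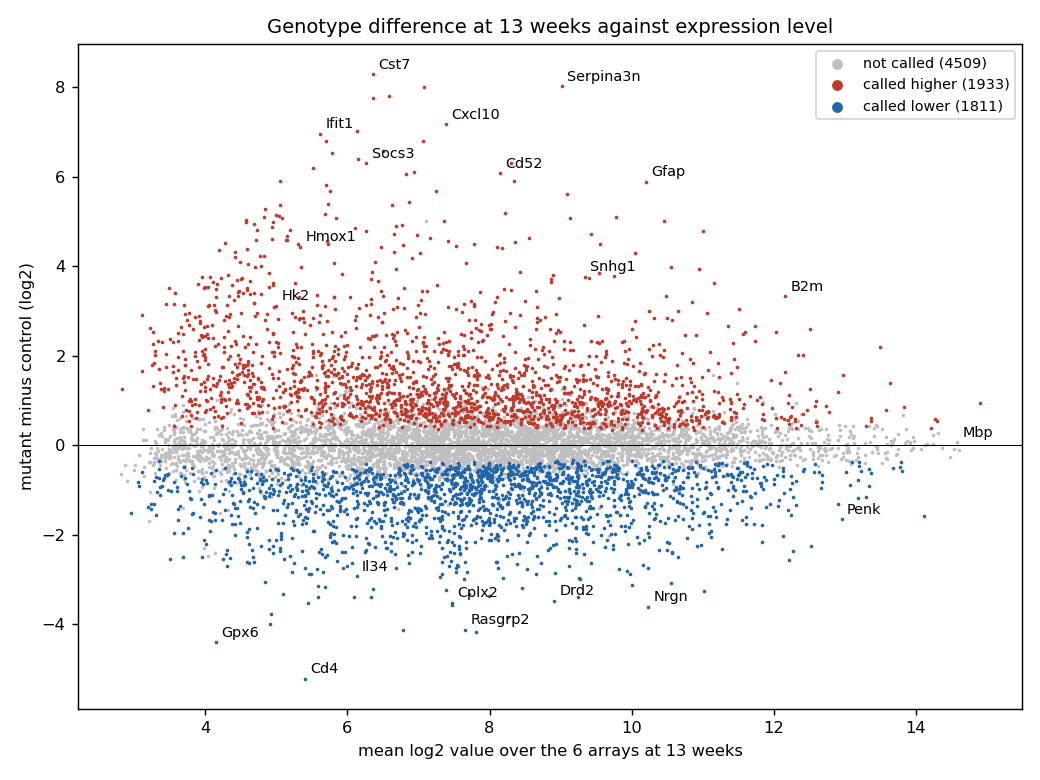
Difference between mutants and controls at 13 weeks (log2, vertical axis) against the mean log2 value over the 6 arrays (horizontal axis), with 1 point per gene, red for genes called higher, blue for lower and grey for those not called. By the measured values the rises reached 8.29 for Cst7 and the falls reached -5.22 for Cd4, each with 1 group under the 40th percentile.

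By the measured values Cst7, a cystatin gene of activated microglia, came first among the rises, but its controls lay under the percentile, so that its rank is not settled. It lay at 2.21, 2.20 and 2.23 in control mice 1, 2 and 3 and at 11.36, 10.41 and 9.74 in mutant mice 1, 2 and 3, a difference of 8.29 ± 0.30 (SE, n = 3 per group, limma's adjusted p = 1.95e-09) and at least 124-fold. Serpina3n (8.03 ± 0.49), a protease inhibitor gene of reactive astrocytes, was above the percentile on all 6 arrays, with 5.93, 4.92 and 4.16 in controls and 13.28, 13.22 and 12.59 in mutants. A2m, which encodes the protease inhibitor alpha-2-macroglobulin, rose at least 184-fold. No control reached the level of any mutant for these 3 genes, and the groups did not overlap in 54.6% of all genes tested. The other genes among the 10 largest measured rises were Clec7a (at least 123-fold), Oasl2 (at least 103-fold), Cxcl10 (7.17), Lcn2 (at least 67.8-fold), Ifit1 (at least 46.6-fold), Usp18 (at least 46.6-fold) and Bst2 (6.79), each a gene of the microglial, astrocytic or interferon groups described further on. Among genes above the percentile on all 6 arrays, large rises were also those of Ifi27l2a (6.30), Serping1 (6.09), Cd52 (6.07), Lgals3bp (5.90), Gfap (5.89), Ccl6 (5.67), Chil1 (5.61), Gbp3 (5.44) and Irgm1 (5.37).

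The largest measured fall was that of Cd4, best known as a T cell co-receptor gene. It lay at 7.66, 7.77 and 8.62 in control mice and at 2.51, 2.39 and 3.49 in mutant mice (-5.22 ± 0.32, adjusted p = 1.65e-07), at least 18.9-fold. T cell genes themselves were below the percentile on all 6 arrays, as given below. Gpx6, a glutathione peroxidase gene, went from 6.28, 6.44 and 6.33 to 1.92, 1.93 and 1.99, all 3 mutants under the percentile, which makes the fall at least 5.95-fold. Icam5, a dendritic adhesion molecule gene of forebrain neurons, lay at 9.36, 9.66 and 10.68 in controls and at 4.9, 5.9 and 6.38 in mutants (-4.17 ± 0.38). The remaining large falls were those of Rasgrp2 (-4.13), the neutral sphingomyelinase gene Smpd3 (-4.12), the adrenergic receptor gene Adra2c (at least 8.82-fold), the tryptophan-degrading enzyme gene Ido1 (-3.84), the growth factor gene Wnt2 (at least 8.19-fold), Nrgn (-3.62), which encodes the calmodulin-binding protein neurogranin, the gene Coch (-3.57), Cplx2 (-3.53), Drd2 (-3.48), Myh7 (-3.40), Tmem121b (-3.39), Pde10a (-3.39) and Dmkn (-3.38).

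Rrn3, the gene targeted in the mutants, was covered by 1 probe set, and no source used here says whether that probe set lies inside the deleted stretch. The values of 7.96, 7.54 and 8.04 in controls and 7.72, 7.58 and 7.18 in mutants overlapped, and the difference of -0.35 ± 0.18 did not pass (adjusted p = 0.128, 95% interval -0.75 to 0.04). At 9 weeks the difference was -1.13, and the change between the ages, 0.78 ± 0.25, did not pass (adjusted p = 0.0525). In bulk tissue, fewer cells of a type and less RNA per cell cannot be told apart, here and in all that follows.

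Among RNA polymerase I, nucleolar and ribosome biogenesis genes, 14 of the 61 members past the filter rose and 4 fell. The share that rose, 23%, was that of the background (23.4%), and the share that fell, 6.56%, was under it (21.9%). After median centring 11 rose and 9 fell. Snhg1, a host gene of small nucleolar RNAs, lay at 7.45, 7.83 and 7.10 in controls and at 11.48, 11.37 and 10.83 in mutants (3.77 ± 0.25, 13.6-fold, adjusted p = 2.99e-07), and the 3 mutants stood well clear of the controls. Snhg5 (2.23 ± 0.17) and Gas5 (0.87), hosts of the same kind, rose as well, although 1 other probe set of Snhg1 differed by only 0.12. The nucleolar helicase gene Ddx21 (1.58), the nucleostemin gene Gnl3 (1.02) and Taf1a (1.01), a subunit of the polymerase I selectivity factor, rose. Ubtf (-1.07), the upstream binding factor of polymerase I, fell with Rrp1 (-0.95), Nhp2 (-0.78) and Taf1d (-0.74), but leaving out control mouse 3, or mutant mouse 2, ended the call for Ubtf (highest adjusted p = 0.082). The major nucleolar protein genes Npm1 (0.58) and Ncl (0.16) did not pass. Of 40 ribosomal protein genes 1 rose, Rplp0 (0.79), and 2 fell, Rpl14 (-1.03) and Rpl27a (-1.04), and the median over the 41 measured members was 0.03. The count of rises depended on the settings: it was 7 without control mouse 2, 8 with sex as a term and 10 against the female control alone, and falls numbered 1 to 5. Rpl27a did not pass without any 1 of the 3 mutants (highest adjusted p = 0.112).

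Transcription factors of medium spiny neurons fell in 13 of 14 members past the filter (92.9%, against a background of 21.9% lower), with a median of -1.38 over the 16 measured. Bcl11b, which encodes CTIP2, a factor that medium spiny neurons need to mature, lay at 11.59, 11.33 and 12.40 in controls and at 8.99, 9.04 and 10.06 in mutants (-2.41 ± 0.33, adjusted p = 0.000121). The highest mutant, mouse 3, stayed under the lowest control. The retinoid receptor genes Rarb (-2.28 ± 0.21) and Rxrg (-1.88), the homeobox genes Dlx6 (at least 3.27-fold) and Meis2 (-1.79) and the forkhead gene Foxp2 (-2.04) fell with it. Ebf1, a factor of the D1 class, was at 0.22 and did not pass.

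Signalling genes of medium spiny neurons fell in 24 of 27 members (88.9%), with a median of -1.82 over the 29 measured. Pde10a, the phosphodiesterase that breaks down cyclic nucleotides in these neurons, lay at 11.05, 10.73 and 11.03 in controls and at 7.07, 7.36 and 8.21 in mutants, 10.5-fold lower (-3.39 ± 0.26, adjusted p = 1.13e-06). Rasgrp2, a Rap1 exchange factor gene, lay at 9.74, 9.81 and 9.61 in controls and at 4.37, 5.42 and 6.98 in mutants. For both genes mutant mouse 3 was the least changed and still lay more than 2 log2 under the lowest control. Actn2 (-3.32), Rasd2 (-3.27), the potassium channel partner gene Kcnip2 (-2.85) and Pde7b (-2.84) completed the largest falls. Ppp1r1b, which encodes DARPP-32, the phosphatase inhibitor downstream of dopamine, fell by 2.36 ± 0.34, and Homer1 (-1.34), Rgs2 (-0.34) and Rgs20 (-0.13) did not pass.

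The 2 classes of medium spiny neurons were represented by few genes. Drd2, the D2 receptor gene, lay at 10.23, 10.11 and 11.63 in controls and at 6.64, 6.66 and 8.22 in mutants (-3.48 ± 0.45, 11.2-fold, adjusted p = 7.32e-05). Penk lay at 13.90, 13.74 and 13.71 in controls and at 11.68, 12 and 12.71 in mutants (-1.65 ± 0.22), and Arhgap6 (-1.57) and Upb1 (-1.67) also fell, so that 4 of 6 members of the D2 list were lower, while the adenosine kinase gene Adk was higher (0.72). The call for Upb1 was lost with sex as a term, when control mouse 2 was left out and when mutant mouse 2 was left out. Of 7 members of the D1 list 3 fell. Tac1, the substance P precursor gene, lay at 13.23, 13.23 and 12.62 in controls and at 11.31, 11.44 and 11.64 in mutants (-1.56 ± 0.20), and Sfxn1 (-1.42) and Isl1 (-0.99) fell with it. The difference between the D1 and D2 lists was not tested. Pdyn, the dynorphin precursor gene of the D1 class, was lower in all 3 mutants than in the controls (-0.72 ± 0.31) but did not pass (adjusted p = 0.0802). Of 14 markers of the striosome and matrix compartments 9 fell, among them Rasgrp1 (-1.98), the calbindin gene Calb1 (-1.41), Lypd1 (-1.25) and Epha4 (-1.19).

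Of 13 markers of striatal interneurons past the filter 0 fell and 1 rose, the choline transporter gene Slc5a7 (1.33 ± 0.48, adjusted p = 0.0397). Slc5a7 did not pass without control mouse 2 or 3 or any 1 of the mutants, nor with sex as a term or after median centring. The median over the 17 measured members was -0.15. After median centring, or without control mouse 1, 2 or 3, 1 marker fell, and 3 fell against the female control alone. Pvalb (-1.23, adjusted p = 0.18) had an SE of 0.72, so that a difference of that size was not detectable for this gene. Npy (0.40) and Sst (-0.04) did not pass either. Of the genes that make, store and take up GABA, the vesicular transporter gene Slc32a1 fell from 10.94, 10.74 and 12.13 to 8.92, 8.97 and 9.74 (-2.06 ± 0.33). Gad1, which encodes the main enzyme of GABA synthesis, lay at 13.17, 12.76 and 12.10 in controls and at 12.75, 12.79 and 12.68 in mutants, which overlapped (0.06 ± 0.25, adjusted p = 0.851). Its partner Gad2 (-0.97, adjusted p = 0.0476) did not pass without control mouse 1 or 2 or any 1 of the mutants, nor with sex as a term. Among 12 markers of cortical, thalamic and pallidal neurons Rorb (2.32) and Prkcd (0.98) rose and Penk, which is also in the D2 list, fell. Without 1 that passed only through the mutants and 2 only through the controls, 1 of 9 rose and 1 fell. Prkcd lost its call with sex as a term, against the female control alone and with the 13-week arrays alone (highest adjusted p = 0.0932). The pair Slc17a6 (-2.30 ± 1.15) and Calb2 (-2.41 ± 1.29), high in control mouse 1, did not pass.

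Genes that most neurons share fell in 22 of 28 members (78.6%), with a median of -0.98. The largest fall was that of Rbfox3, which encodes NeuN, at 8.95, 8.72 and 9.48 in controls and 6.65, 6.83 and 7.32 in mutants (-2.12 ± 0.24, 4.34-fold). Eno2 (-1.77), Syn2 (-1.74), Thy1 (-1.68), Rbfox1 (-1.49) and the neurofilament gene Ina (-1.49) followed. These falls were smaller than those of Pde10a or Rasgrp2, which were among the largest in the medium spiny neuron lists. Other members of those lists, such as Rxrg (-1.88) and Meis2 (-1.79), fell less than Rbfox3, and the difference between the lists was not tested. Gap43 (-0.35), Ncam1 (0.20) and Vsnl1 (-0.04) did not pass. Snap25, a membrane fusion gene of all synapses, differed by -0.57 ± 0.19 (adjusted p = 0.0272) and did not pass without control mouse 1 or 3 or any 1 of the mutants (highest adjusted p = 0.0927).

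On the receiving side of the synapse, glutamate receptor genes fell in 9 of 10 members past the filter. The kainate receptor gene Grik5 lay at 8.25, 8.62 and 9.45 in controls and at 5.52, 5.54 and 6.64 in mutants (-2.87 ± 0.35), and the AMPA receptor genes Gria1 (-1.98) and Gria2 (-1.88) and their auxiliary subunit genes Cacng3 (-2.44) and Cacng2 (-2.13) fell with it. Postsynaptic scaffold and dendritic genes fell in 14 of 19, with a median of -1.97 over the 21 measured. Dlg4, the PSD-95 scaffold gene, lay at 8.80, 8.31 and 9.90 in controls and at 5.22, 5.29 and 6.81 in mutants (-3.23 ± 0.45). Nrgn lay at 11.34, 11.33 and 13.45 in controls and at 7.79, 8.06 and 9.42 in mutants, with mouse 3 the highest in both groups. The calmodulin kinase genes Camk4 (-3.15) and Camk2a (at least 3.56-fold) fell too. The activity-regulated gene Arc was higher in every mutant but did not pass (1.06 ± 0.76, adjusted p = 0.275).

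Of 9 GABA and glycine receptor genes 5 fell, and without 1 that passed only through the controls 4 of 8 fell. Gabrd, the subunit of extrasynaptic receptors, lay at 9.77, 9.94 and 10.46 in controls and at 6.38, 6.71 and 7.52 in mutants, 9.11-fold lower (-3.19 ± 0.26). The other falls were Gabbr1 (-1.46), Gabrb2 (-1.06), the gephyrin gene Gphn (-0.85) and Gabra3, whose mutants were all under the percentile, and Gabrb1 rose (0.57). Gabra3 did not pass without mutant mouse 1 (highest adjusted p = 0.0744), and Gabrb1 not without mutant mouse 1 or 2 (highest adjusted p = 0.0894) nor after median centring. Among receptors for dopamine, acetylcholine, serotonin and other modulators 9 of 14 fell and 2 rose. Chrm1, a muscarinic receptor gene, lay at 6.87, 6.74 and 8.03 in controls and at 3.41, 3.73 and 3.90 in mutants (-3.53 ± 0.30), and Adra2c was among the largest falls of all. The histamine receptor gene Hrh3 (-2.36) and the cannabinoid receptor gene Cnr1 (at least 2.22-fold, with no mutant array above the percentile) were lower as well. Sstr2, a somatostatin receptor gene, moved the other way, from 4.33, 4.25 and 4.33 to 7.91, 7.33 and 6.79 (3.04 ± 0.35), and so did the cholecystokinin receptor gene Cckbr (1.33).

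Ion channel genes fell broadly: 17 of 20 sodium and calcium channel and transport genes and 21 of 29 potassium channel genes, with medians of -1.46 and -0.97 over the 24 and 37 measured. The T-type calcium channel gene Cacna1h lay at 8.21, 8.34 and 9.36 in controls and at 5.42, 5.91 and 6.74 in mutants (-2.61 ± 0.38). Cacnb2 (-2.60), the calcium release channel gene Ryr3 (-2.31) and the calcium pump gene Atp2b2 (-2.07) fell, as did the potassium channel genes Kcnab2 (-2.77), Kcnh1 (-2.55), Kcnq5 (-2.18) and Kcnj4 (-2.08). Only 2 potassium channel genes rose, Kcnj10 (1.72), the inward rectifier of astrocytes, and Kcnj8 (0.61), that of pericytes. Presynaptic genes fell in 25 of 30 members. Cplx2, a complexin gene that clamps vesicle fusion, was the most uneven of them, at 9.41, 9.37 and 8.93 in controls and at 5.26, 4.59 and 7.28 in mutants (-3.53 ± 0.61, adjusted p = 0.000647). Rab3a (-2.34), Rph3a (-2.08), the beta-synuclein gene Sncb (-1.77) and Syn2 (-1.74) fell, and Amph (-0.55), Syt11 (-0.33) and Syt4 (-0.14) did not pass. Rph3a did not pass in the 3 mutants against the female control alone (adjusted p = 0.143).

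**Figure D2:**
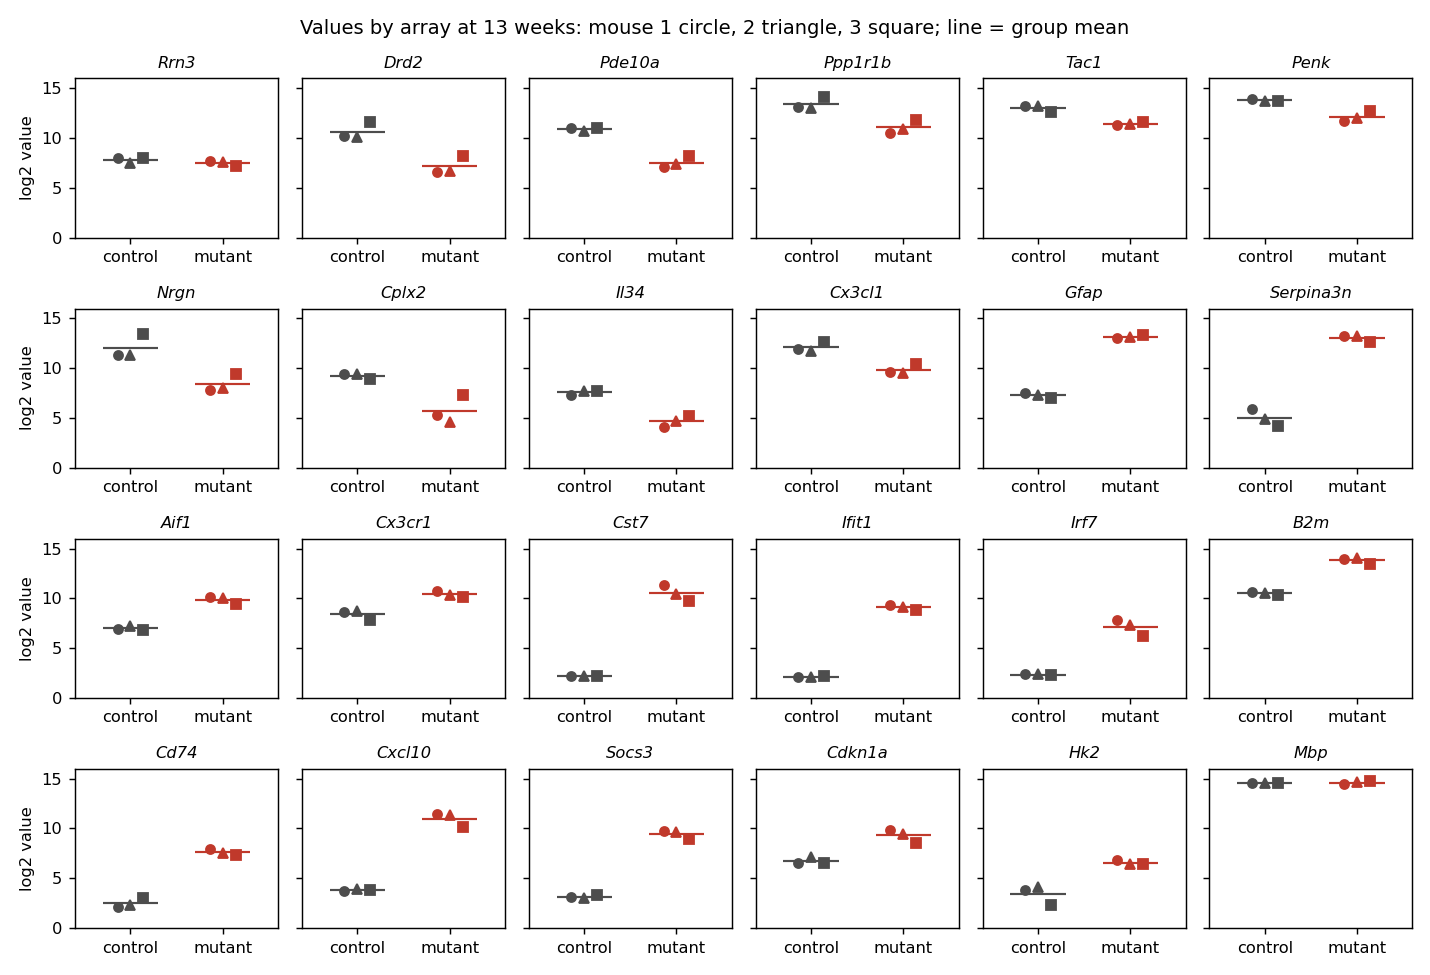
Log2 value on each of the 6 arrays at 13 weeks (vertical axis) for 24 genes, with controls in grey, mutants in red, mouse 1 as a circle, mouse 2 as a triangle, mouse 3 as a square and the line at the group mean. Neuronal genes such as Pde10a and Drd2 are lower in all 3 mutants, glial and interferon genes such as Gfap and Ifit1 are higher in all 3, and Mbp lies between 14.48 and 14.73 on every array.

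Immediate early genes, which neurons and glia switch on within minutes of a stimulus, did not move as 1 group. Of 18 members past the filter 9 rose and 0 fell. Of those that rose, 2 passed only through the mutants, which leaves 7 of 16. Atf3, a gene induced by injury, lay at 2.32, 2.23 and 2.26 in controls and at 7.88, 7.45 and 6.78 in mutants, at least 14.1-fold higher (5.10 ± 0.23, adjusted p = 9.98e-09). Jun lay at 6.96, 6.40 and 6.33 in controls and at 9.90, 9.46 and 9.23 in mutants (2.97 ± 0.21), and Maff (at least 2.94-fold) and Btg2 (2.25) rose. Egr1, the usual marker of neuronal firing, overlapped between the groups (-0.27 ± 0.39, adjusted p = 0.593), and Jund (0.00) and Ier5 (-0.50) did not pass. Fos lay at 7.58, 7.49 and 4.65 in controls and at 9.74, 9.63 and 9.11 in mutants (2.92 ± 1.06, adjusted p = 0.0415). It did not pass without control mouse 3 or any 1 of the mutants, nor with sex as a term (highest adjusted p over the alternatives 0.149). Klf6 (1.46) lost its call with sex as a term and when control mouse 2 or mutant mouse 1 or 2 was left out. The count of rises was 3 without mutant mouse 1 or without mutant mouse 2, and 5 with sex as a term. Of 22 neuropeptide and granin genes 7 fell, among them Nucb2 (-1.65), Chgb (-1.60) and Scg5 (-1.38). The 4 that rose were Nts, the neurotensin gene (8.90, 8.46 and 7.85 in controls, 10.50, 10.84 and 10.72 in mutants, 2.28 ± 0.37), Scg3 (1.26), Scg2 (0.75) and Cpe (0.58). Without 1 that passed only through the controls, 33.3% fell and 19% rose, against 22.5% and 21.6% over all genes, so the rises did not exceed the background.

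Astrocyte identity genes rose in 23 of 31 members (74.2%, against a background of 23.4% higher, or 21.6% without genes that passed the filter only through 1 group), with a median of 1.35. Gfap, the astrocyte intermediate filament gene, lay at 7.5, 7.33 and 6.96 in controls and at 13.0, 13.16 and 13.29 in mutants, 59.2-fold higher (5.89 ± 0.30, adjusted p = 3.68e-08). Here mutant mouse 3 was the highest mutant, unlike for most genes that rose. The urea transporter gene Slc14a1 (4.41), the connexin gene Gjb2 (3.11), the water channel gene Aqp4 (2.85 ± 0.17), the astrocyte transcription factor gene Sox9 (2.11) and Aldh1l1 (2.10) rose, while Aldoc (0.14), Sparcl1 (0.16) and the glutamine synthetase gene Glul (0.42) did not pass.

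Genes that astrocytes turn on in most kinds of injury rose in 11 of 11 members past the filter, 12 being measured, but 5 of them passed only through the mutants, which leaves 6 of 6. Lcn2, the lipocalin-2 gene, lay at 2.51, 2.62 and 2.75 in controls and at 10.47, 9.89 and 8.55 in mutants, at least 67.8-fold higher. Osmr, the oncostatin M receptor gene, rose at least 45.2-fold and Cd44, a hyaluronan receptor gene, at least 55.7-fold, and Timp1 (at least 21.8-fold), a metalloprotease inhibitor gene, rose as well. The genes described as induced in astrocytes by lipopolysaccharide (A1) and by ischaemia (A2) both rose, in 7 of 8 and in 7 of 7 members past the filter, or in 5 of 6 and 4 of 4 without those that passed only through the mutants. In the first set Serping1 (6.09), the guanylate-binding protein gene Gbp2 (6.05) and H2-D1 (4.30) led, all interferon-responsive genes, and Fkbp5 (-0.52) did not pass. In the second Emp1 (at least 29.0-fold), Tgm1 (at least 9.38-fold), Cd14 (3.26), Ptgs2 (at least 4.71-fold), S100a10 (2.33) and Tm4sf1 (2.01) rose. Without mutant mouse 1, 2 or 3 only 6 members of the first list of this paragraph passed the filter, and all 6 rose in each case.

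Genes of homeostatic microglia rose in 11 of 17 members, with a median of 1.32. Fcrls lay at 7.14, 7.54 and 7.31 in controls and at 10.92, 10.67 and 10.25 in mutants (3.28 ± 0.27, 9.74-fold), and Olfml3 (2.67), Gpr34 (2.48), Tgfbr1 (2.36), Sparc (2.02) and the fractalkine receptor gene Cx3cr1 (2.00) rose. The 2 markers most used for the resting state did not pass: P2ry12 lay at 7.96, 8.34 and 8.64 in controls and at 8.90, 8.75 and 8.80 in mutants (0.50 ± 0.21, adjusted p = 0.0747), and Tmem119 differed by 0.98 ± 0.40 (adjusted p = 0.0636). In both, all 3 mutants lay above the 3 controls, while the groups did not overlap, in either direction, in 54.6% of all genes tested.

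Genes of activated microglia rose in 28 of 30 members, with a median of 3.09 over the 32 measured, and in 19 of 21 without the 9 that passed only through the mutants. Beside Cst7, those named for their large rises were Clec7a, a beta-glucan receptor gene (3.31, 2.37 and 2.36 in controls, 10.72, 10.60 and 10.16 in mutants, at least 123-fold), Cd52 (6.07), Lgals3bp (5.90), the galectin-3 gene Lgals3 (at least 33.0-fold) and the chemokine gene Ccl6 (5.67). Trem2 lay at 5.57, 6.26 and 6.38 in controls and at 9.59, 9.20 and 8.88 in mutants (3.15 ± 0.28), and its adaptor gene Tyrobp rose by 3.21. Lpl (0.80) and Fth1 (0.23) did not pass. Lysosomal and phagocytic genes rose in 33 of 43 and fell in 4. The Fc receptor gene Fcgr1 (4.19), the integrin gene Itgb2 (3.94), the cathepsin C gene Ctsc (3.87), the progranulin gene Grn (3.33) and the beta-glucuronidase gene Gusb (3.11) led. The falls were small and included 2 subunits of the proton pump, Atp6v1b2 (-0.51) and Atp6v1a (-0.38), beside Mcoln1 (-0.97) and Gaa (-0.70), while Psap (0.05) did not pass. Of 12 complement genes past the filter 11 rose and 0 fell, and without 2 that passed only through the mutants 9 of 10 rose. C1qc lay at 8.55, 9.13 and 9.84 in controls and at 12.24, 11.93 and 11.75 in mutants (2.80 ± 0.29), and C1qb (2.52), C1qa (2.49), C3ar1 (at least 3.29-fold) and Itgam (2.58) rose, while Cd59a (-0.62), which protects cells from complement, did not pass.

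Among signals that act on microglia, ligands moved in both directions. Il34, the neuronal ligand of the receptor CSF1R, lay at 7.30, 7.73 and 7.75 in controls and at 4.10, 4.72 and 5.17 in mutants (-2.93 ± 0.26, 7.62-fold lower). Csf1, the other ligand, lay at 5.38, 5.46 and 6.02 in controls and at 8.62, 8.50 and 8.55 in mutants (2.94 ± 0.23, 7.66-fold higher), and Csf1r rose by 1.75 ± 0.22. The fractalkine gene Cx3cl1, expressed by neurons, lay at 11.91, 11.74 and 12.64 in controls and at 9.58, 9.54 and 10.44 in mutants (-2.24 ± 0.29), while Cx3cr1 rose from 8.58, 8.75 and 7.86 to 10.77, 10.29 and 10.13. In each of these 5 genes the groups did not overlap, as was so for 54.6% of all genes tested.

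Of 22 cytokine genes and receptors past the filter 18 rose and 2 fell, the other fall being Il17rc (at least 1.93-fold). Without 1 that passed only through the mutants, 17 of 21 rose. The receptor genes Tnfrsf12a (4.93), Tnfrsf1a (3.13) and Csf3r (3.01) rose. The ligand genes Il1b (2.45 to 2.61), Tnf (2.29 to 2.37) and Il6 (2.05 to 2.16) lay under the percentile on all 6 arrays, so that nothing can be said of them at this sensitivity. Chemokine genes rose in 10 of 15 members, of which 4 passed only through the mutants, and fell in 3, Cx3cl1, Ackr1 (-1.63) and Ccl25 (-0.53). Cxcl10 lay at 3.75, 3.90 and 3.77 in controls and at 11.42, 11.38 and 10.12 in mutants (7.17 ± 0.30, 144-fold). Ccl12 rose at least 33.2-fold, and Ccl2 rose to 7.42, 6.85 and 4.74, with mutant mouse 3 far under the others (at least 6.88-fold). Ccl3 (at least 15.2-fold) and Ccl9 (5.01) rose as well. The count of chemokine rises was 6, 5 and 6 without mutant mouse 1, 2 and 3, when 11 members passed the filter. In the STAT3 and NF-kappa B pathways, 13 of 23 members rose and 1 fell, and 4 of those that rose passed only through the mutants. Socs3, the feedback inhibitor that STAT3 induces, lay at 3.06, 2.99 and 3.29 in controls and at 9.71, 9.66 and 8.89 in mutants, at least 58.4-fold higher. Cebpd (4.54), Icam1 (at least 5.76-fold), Bcl3 (at least 3.47-fold), Vcam1 (2.58) and Pim1 (at least 1.86-fold) rose, and Socs2 fell (-1.19 ± 0.23). Without mutant mouse 1 or 2 this count was 8.

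**Figure D3:**
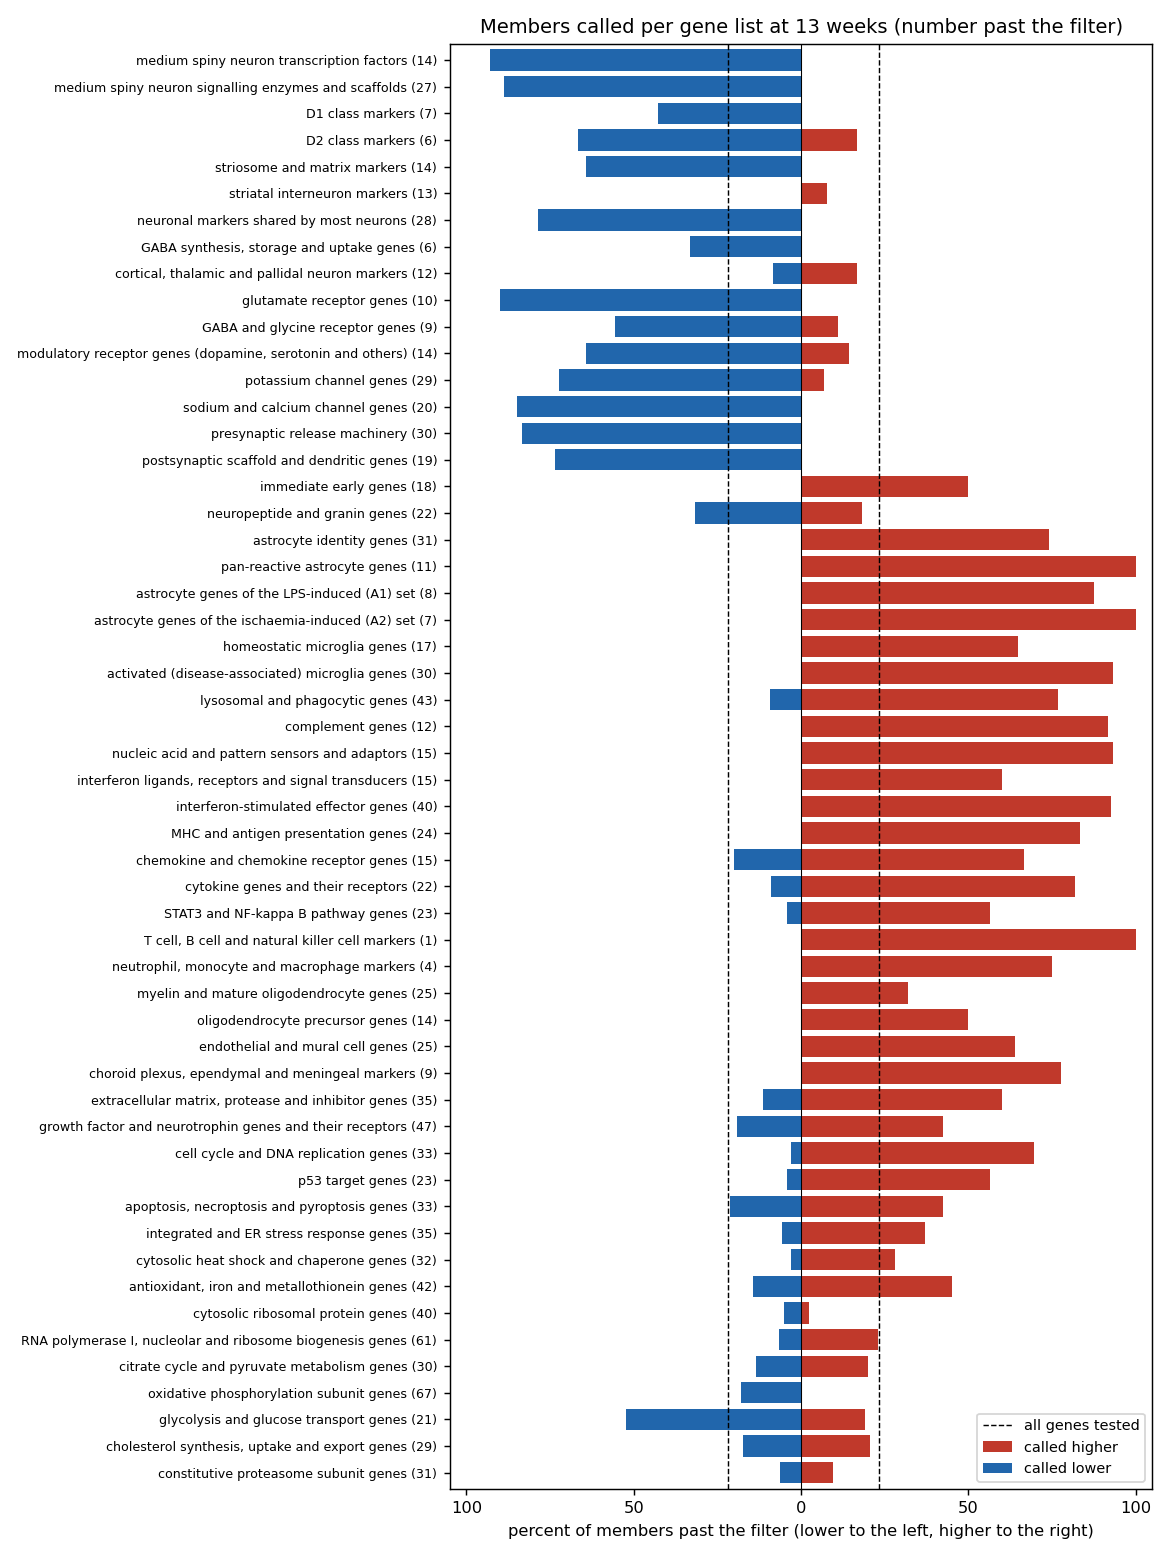
Share of the members past the filter that were called lower (blue, to the left) or higher (red, to the right) in mutants at 13 weeks, in percent, for 54 gene lists, with the number of members past the filter in brackets and dashed lines at the shares over all genes tested, 21.9% lower and 23.4% higher. Most lists of neuronal genes extend to the left, except striatal interneurons (0 of 13 lower) and cortical, thalamic and pallidal neurons (1 of 12 lower). The 1 that fell there is Penk, which is also in the D2 list. Lists of astrocyte, microglial and interferon genes extend to the right, and the ribosomal protein and proteasome lists stay inside the dashed lines on both sides.

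Interferon-stimulated effector genes rose in 37 of 40 members past the filter and fell in 0, with a median of 3.76 over the 49 measured. Of the 40, 17 passed only through the mutants, and of the other 23, 20 rose. Ifit1, which binds foreign RNA ends, lay at 2.12, 2.13 and 2.16 in controls and at 9.34, 9.09 and 8.86 in mutants, at least 46.6-fold higher (6.96 ± 0.14, adjusted p = 5.47e-11). Bst2, the tetherin gene, lay at 3.70, 3.61 and 3.72 in controls and at 10.88, 10.66 and 9.85 in mutants (6.79 ± 0.24, 110-fold). Oasl2 rose at least 103-fold, and Rtp4 (at least 75.2-fold) and Ifi27l2a (6.30) rose too. Pml (0.38), Adar (0.20) and Znfx1 (-0.25) did not pass. Without mutant mouse 1, 2 or 3, 27 members passed the filter and 24, 23 and 24 rose.

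The promoters of these genes often hold the core of the interferon-stimulated response element, GAAA and GAAA with any 2 bases between them. It was searched on both strands in RefSeq windows (GRCm38.p6) of 300 bases, 250 before and 50 after the start. Of the 33 interferon-stimulated list members with a window, 17 (51.5%) had a match, against 3.88% of the 6727 genes tested that had one. The share was 27.5% among the 50 largest rises (40 with a window) and 0 of 34 among the 50 largest falls. The stricter form in which CT follows, every match of which also holds the core, was found in 33.3%, 0.327%, 25.0% and 0 of 34 respectively. For the STAT palindrome TTCNNNGAA, which can overlap the core, the shares were 24.2%, 8.12%, 17.5% and 2.94%. For the core, the share was 5.48% among all genes called higher and 3.35% among all called lower. The 50 largest rises include list members such as Cxcl10, Ifit1 and Bst2, so their share and that of the list are not separate. The list members were chosen for being interferon-stimulated, so the shares describe them and show no binding. The 250 bases before the start are given for the 4 list members with the largest rises among those with a core in that stretch, in the direction of transcription, 5′ to 3′, with the core on either strand in capitals.
Cxcl10, chr5:92348890-92349139, minus strand: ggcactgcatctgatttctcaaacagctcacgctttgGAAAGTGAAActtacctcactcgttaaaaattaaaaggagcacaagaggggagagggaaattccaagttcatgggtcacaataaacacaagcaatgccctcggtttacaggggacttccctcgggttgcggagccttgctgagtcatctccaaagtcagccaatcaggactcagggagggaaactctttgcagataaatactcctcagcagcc
Ifit1, chr19:34640639-34640888, plus strand: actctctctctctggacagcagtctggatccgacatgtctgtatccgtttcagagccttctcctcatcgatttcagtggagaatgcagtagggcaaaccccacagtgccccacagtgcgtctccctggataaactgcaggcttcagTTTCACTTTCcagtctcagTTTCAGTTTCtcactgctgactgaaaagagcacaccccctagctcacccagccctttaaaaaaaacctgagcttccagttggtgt
Bst2, chr8:71537473-71537722, minus strand: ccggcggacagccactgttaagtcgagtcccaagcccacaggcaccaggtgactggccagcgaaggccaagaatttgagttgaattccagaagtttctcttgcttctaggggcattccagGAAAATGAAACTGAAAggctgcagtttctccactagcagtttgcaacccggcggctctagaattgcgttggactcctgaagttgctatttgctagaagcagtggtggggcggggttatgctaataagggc
Gbp2, chr3:142620413-142620662, plus strand: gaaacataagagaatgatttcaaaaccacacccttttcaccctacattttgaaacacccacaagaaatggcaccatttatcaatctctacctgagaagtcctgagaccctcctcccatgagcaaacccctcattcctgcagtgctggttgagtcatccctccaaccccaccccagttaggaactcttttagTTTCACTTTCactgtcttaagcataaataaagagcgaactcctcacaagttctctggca
The core begins 213 bases before the start in Cxcl10 and 59 in Gbp2. Ifit1 has 2 cores, beginning 104 and 85 bases before the start, and Bst2 has 2 that overlap, beginning 130 and 124 bases before it. All 4 genes were at or under 4.02 on every control array and at or above 8.86 on every mutant array.

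Of 15 interferon ligand, receptor and transducer genes past the filter 9 rose and 0 fell, of which 3 passed only through the mutants. Irf7, the factor that amplifies the type I response, lay at 2.35, 2.35 and 2.25 in controls and at 7.84, 7.36 and 6.19 in mutants, at least 11.9-fold higher. Irf9 (4.32 ± 0.47), Irf8 (3.44), Stat2 (1.98) and Irf1 (1.79) rose, as did Usp18, the brake on the receptor, at least 46.6-fold. The receptor chain Ifnar1 (0.13 ± 0.20, adjusted p = 0.617) and the kinases Jak1 (-0.11) and Jak2 (-0.07) did not pass, and the values of all 3 overlapped between the groups. The ligand genes Ifnb1 (2.10 to 2.21) and Ifng (2.31 to 2.47) were under the percentile on every array. Sensors of nucleic acids and microbial patterns and their adaptors rose in 14 of 15, of which 8 passed only through the mutants, and of the other 7, 6 rose. Ifih1, which encodes the RNA sensor MDA5, lay at 3.46, 3.25 and 2.47 in controls and at 7.77, 7.61 and 7.29 in mutants, and Tlr2 (at least 18.1-fold), Ly86 (3.94), Zbp1 (at least 6.13-fold), Tlr3 (3.30) and Cd14 (3.26) rose, while the kinase gene Tbk1 (0.11) did not pass. Without mutant mouse 1, 2 or 3, 9 sensor genes passed the filter and 6, 7 and 8 rose.

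Antigen presentation genes rose in 20 of 24 members, with a median of 2.35 over the 28 measured, and in 11 of 15 without the 9 that passed only through the mutants. H2-D1, a class I heavy chain gene, lay at 8.19, 7.98 and 7.52 in controls and at 12.70, 12.39 and 11.49 in mutants (4.30 ± 0.27, 19.7-fold), and B2m, the shared light chain gene, lay at 10.59, 10.52 and 10.38 in controls and at 13.97, 14.02 and 13.48 in mutants (3.33 ± 0.17). Class II genes rose from under the percentile: Cd74, the invariant chain gene, at least 16.6-fold and H2-Aa at least 14.8-fold. The immunoproteasome genes Psmb8 (at least 14.8-fold) and Psmb9 (at least 7.82-fold) rose, while the endoplasmic reticulum chaperone genes Pdia3 (0.48), Canx (0.11) and Calr (-0.09) did not pass. Without mutant mouse 1, 2 or 3 the count was 11 of 15. H2 genes are near-identical copies, and a probe set of 1 can bind RNA of another.

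Markers of blood cells were largely absent. Of 23 measured markers of T, B and natural killer cells 22 were under the percentile on all 6 arrays, and the list's mean was 2.54 to 2.63 in controls and 2.56 to 2.62 in mutants. The 1 member past the filter, the immunoglobulin gene Ighm, rose (1.19 ± 0.29), but another of its probe sets differed by -0.32, and it did not pass in the 3 mutants against the female control alone (adjusted p = 0.103). Of 26 markers of neutrophils, monocytes and macrophages outside the brain tissue, 22 were under the percentile on all 6 arrays. The list's mean was 2.57 to 2.63 in controls and 2.86 to 3.04 in mutants. Csf3r (3.01), Vcan (2.83) and Fn1 (at least 4.03-fold) rose, of which Vcan also marks oligodendrocyte precursors, and Stab1 (0.30) did not pass. Of these 4, 1 passed the filter only through the mutants, which leaves 2 of 3 that rose.

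Myelin and mature oligodendrocyte genes rose in 8 of 25 members (32.0%) and fell in 0, with a median of 0.46. Apod, a lipocalin gene, lay at 12.31, 12.46 and 12.44 in controls and at 14.64, 14.63 and 14.49 in mutants (2.18 ± 0.14), and the small heat shock gene Cryab (1.39), Il33 (1.37), Ugt8a (0.98), Cldn11 (0.97) and Car2 (0.93) rose. Cldn11 did not pass against the female control alone (adjusted p = 0.0804). Mbp differed by 0.07 (95% interval -0.22 to 0.35), but with its probe sets averaged it fell (-0.32, adjusted p = 0.024), and Cnp (0.67) and Mobp (-0.22) did not pass. Precursor genes rose in 7 of 14, led by Vcan (2.83), Ptprz1 (1.92) and the growth factor receptor gene Pdgfra (1.64), which lay at 8.32, 8.14 and 6.35 in controls and at 9.09, 9.34 and 9.29 in mutants. Sox11 (1.30) lost its call with sex as a term and when control mouse 1 or mutant mouse 1 or 2 was left out. Without control mouse 3 the counts were 14 of 25 and 11 of 14.

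Endothelial and mural genes rose in 16 of 25 members, of which 3 passed only through the mutants, and fell in 0. The adhesion molecule genes Icam1 (at least 5.76-fold) and Vcam1 (2.58) and the contractile gene Tagln (2.69) led, followed by the von Willebrand factor gene Vwf (3.30, 2.99 and 4.09 in controls, 5.89, 6.06 and 5.23 in mutants, 2.27 ± 0.28), Abcg2 (1.76) and Sox17 (at least 2.34-fold). Sox17 did not pass without mutant mouse 2 (highest adjusted p = 0.0649), and Vtn (0.12), Plvap (0.27) and Acta2 (-0.17) did not pass at all. Of 9 choroid plexus, ependymal and meningeal markers 7 rose, led by Igfbp2 (4.63), which reactive astrocytes also make. Of those that rose, 2 passed only through the mutants, which leaves 5 of 7. The count of rises was 4 without control mouse 1 or 2 or mutant mouse 1 or 2, and 3 without mutant mouse 3. Ttr, the transthyretin gene of the choroid plexus, was at 5.26, 3.35 and 7.32 in the mutants and 2.86 to 3.19 in controls, and did not pass without any 1 of the 3 controls. Dcn (1.10) did not pass without control mouse 1 or 2 or any 1 of the mutants, nor with sex as a term. The defining choroid genes Kl (2.23 to 2.31) and Folr1 (2.40 to 2.64) were under the percentile on all 6 arrays. The part of such tissue in other results was not tested.

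**Figure D4:**
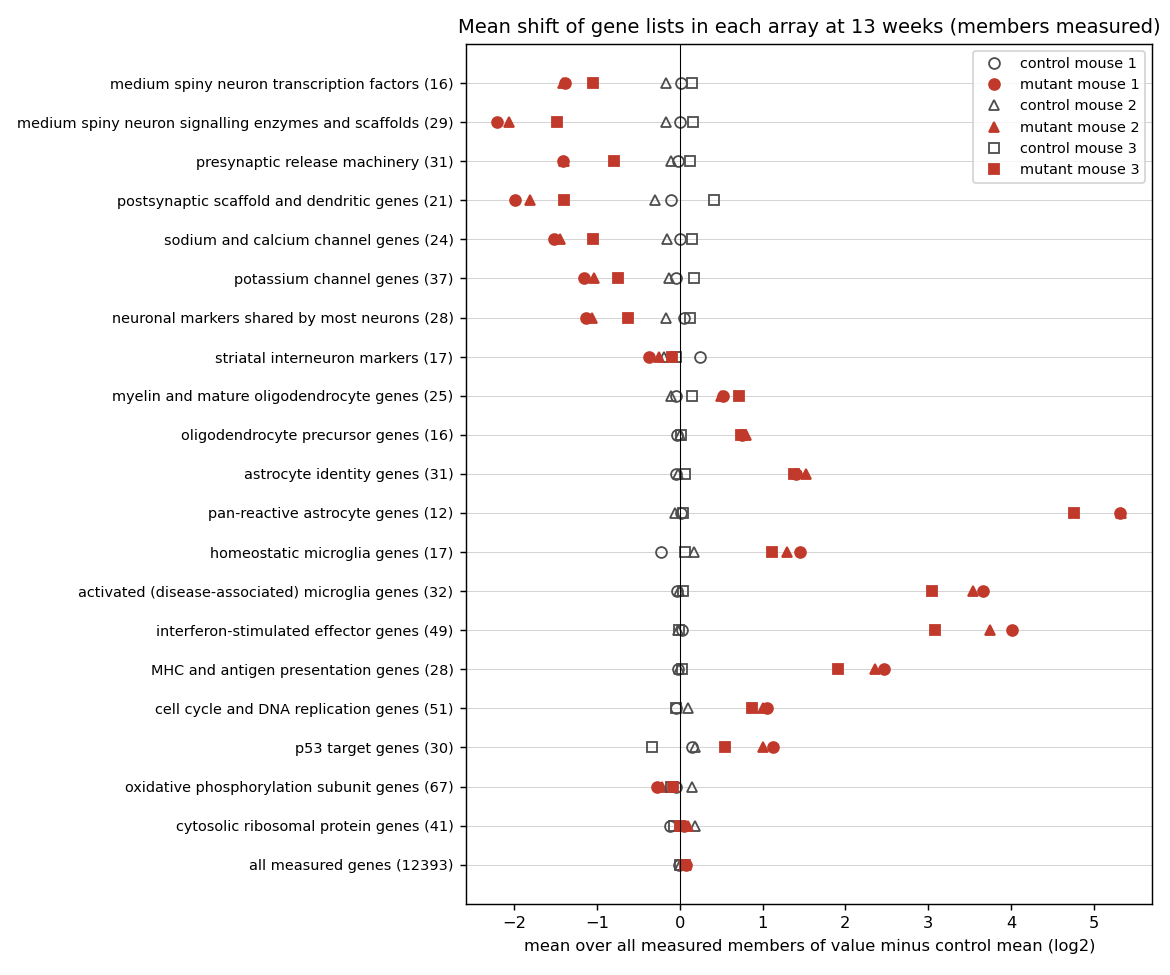
Mean over all measured members of a list of the value minus the control mean (log2, horizontal axis) on each of the 6 arrays at 13 weeks, with controls as open and mutants as filled symbols. Mutant mouse 3 lies closest to the controls in most neuronal lists shown, with -1.48 against -2.20 and -2.06 for signalling genes of medium spiny neurons. For interferon-stimulated genes it lies at 3.08 against 4.01 and 3.74.

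The 3 mutants differed in degree. Mutant mouse 3 was the lowest mutant in 1346 (69.6%) of the genes that rose and the highest in 1324 (73.1%) of those that fell. Its shift from the control mean was a median 84.4% of that of mutants 1 and 2 for genes that rose and 74.4% for genes that fell. For astrocyte identity genes mutant mouse 3 was only slightly the lowest, with mean shifts of 1.41, 1.53 and 1.38 in mutants 1, 2 and 3. Oligodendrocyte genes were an exception, at 0.52, 0.50 and 0.72. In the D1 list the mean shifts were -0.51, -0.54 and -0.52, so that mutant mouse 3 was not the closest to the controls there. The mutants otherwise lay close together, with a median SD over genes of 0.17 against 0.33 in the controls, which include control mouse 3. Control mice 1 and 2 lay as close as the mutants, at a root mean square distance of 0.32 against 0.25 to 0.43 between mutants.

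Extracellular matrix, protease and inhibitor genes rose in 21 of 35 members, of which 7 passed only through the mutants, and fell in 4. Beside Cd44 and Timp1, the rises were led by the versican gene Vcan (2.83), the collagen gene Col5a2 (at least 3.37-fold), the biglycan gene Bgn (2.77) and Adamts1 (at least 3.26-fold). The falls were Col6a1 (-1.91), the perlecan gene Hspg2 (-1.35), Itga5 (at least 1.80-fold) and Lamb1 (-0.62), and the brain proteoglycan genes Bcan (-0.03) and Ncan (-0.11) did not pass. Growth factor genes and their receptors rose in 20 of 47 and fell in 9, and 2 of those that rose passed only through the mutants. Without these 2, 40% rose and 20% fell, against 21.6% and 22.5% over all genes, so the falls did not exceed the background. Inhba, the activin A gene, lay at 7.11, 6.45 and 7.55 in controls and at 11.10, 10.79 and 10.17 in mutants (3.65 ± 0.57, 12.6-fold), and Tgfb1 (at least 4.30-fold), a cytokine gene of microglia, rose with its receptor gene Tgfbr2 (2.80). Wnt2 went from 6.69, 6.57 and 7.17 to 2.65, 2.95 and 3.51, at least 8.19-fold lower, and Gdf10 fell (-2.46).

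Cell cycle and DNA replication genes rose in 23 of 33 members, of which 3 passed only through the mutants, and fell in 1, with a median of 0.78 over the 51 measured. Ccnd1, the cyclin D1 gene, lay at 6.25, 6.37 and 5.83 in controls and at 9.71, 9.75 and 9.27 in mutants (3.43 ± 0.21, 10.8-fold). The licensing factor gene Cdt1 rose at least 5.30-fold, and Cdk1 (2.91), Mcm3 (at least 4.51-fold), Rrm2 (2.86), Ube2c (2.49) and the proliferation marker Mki67 (1.89 ± 0.41) rose. The 1 fall was that of Ccnd2 (-0.74), and Cdk4 (0.15), Ccne2 (-0.07) and Hmgb2 (0.78) did not pass. Targets of p53, which is stabilised when nucleoli are disrupted, rose in 13 of 23 and fell in 1, with a median of 0.18 over the 30 measured. Of these, 1 rise passed the filter only through the mutants and the fall only through the controls, which leaves 12 of 21 higher and 0 lower. Cdkn1a, the p21 gene, lay at 6.49, 7.13 and 6.50 in controls and at 9.88, 9.48 and 8.54 in mutants (2.59 ± 0.32). The BH3 gene Pmaip1 rose at least 6.41-fold and Perp (2.94), Fas (2.85), Aen (2.25) and Btg2 (2.25) rose, while Zmat3 (-0.20), Plk2 (0.07) and Ei24 (0.12) did not pass. Mdm2, the feedback inhibitor of p53, rose by 0.74 ± 0.22. The count of p53 target rises was 8 without mutant mouse 1.

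Of 33 cell death genes past the filter 14 rose and 7 fell, and 4 of those that rose passed only through the mutants. Without these 4, 34.5% rose and 24.1% fell, against 21.6% and 22.5% over all genes, so the falls were near the background. Pycard, the inflammasome adaptor gene, lay at 5.74, 5.79 and 5.37 in controls and at 10.01, 9.82 and 9.25 in mutants (4.06 ± 0.34), the inflammatory caspase gene Casp1 rose at least 3.36-fold, and Casp8 of the death receptor branch at least 4.98-fold. Cflar (1.97), which restrains caspase-8, rose. Casp9, the caspase of the mitochondrial branch, fell by 1.03 ± 0.28, and Cycs (0.30), Bag1 (-0.18) and Parp1 (-0.14) did not pass. Without mutant mouse 1 or 2 the rises numbered 7 and 8, and without mutant mouse 2 the falls numbered 3.

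In the integrated and endoplasmic reticulum stress responses 13 of 35 members rose and 2 fell, Atf6 (-1.79 ± 0.26) and Asns (-0.73). Of those that rose, 2 passed only through the mutants. Nupr1, a stress-induced chromatin gene, lay at 7.09, 7.28 and 7.32 in controls and at 12.66, 12.79 and 11.55 in mutants (5.10 ± 0.27, 34.4-fold). The interferon-induced kinase gene Eif2ak2 (at least 5.35-fold), the amino acid transporter gene Slc7a5 (1.87), Edem1 (1.72), Atf4 (1.66) and Ddit3 (0.97) rose, while the chaperone genes Hspa5 (0.95 ± 0.46) and Hsp90b1 (0.12) did not pass. Slc7a5 did not pass against the female control alone (adjusted p = 0.059). Of 32 cytosolic heat shock genes 9 rose, near the background share, among them Hspb1 (3.49), Hspa1b (2.79), Hspb8 (2.32), Hspa1a (at least 2.46-fold), Cryab (1.39) and Bag3 (1.36), and Dnajc5 fell (-0.49). Without 1 that passed the filter only through the mutants, 8 of 31 heat shock genes rose. The constitutive chaperone genes Hspa8 (0.09), Hsp90aa1 (0.33) and Cct2 (0.20) did not pass. Another probe set of Hspb8 differed by only 0.26, and 5 heat shock genes rose without mutant mouse 1 but 17 against the female control alone. Antioxidant, iron and metallothionein genes rose in 19 of 42 and fell in 6, and without 1 that passed only through the mutants 18 of 41 rose. Hmox1, the heme oxygenase gene, rose at least 15.9-fold, with Cyba (3.19), Nfe2l2 (2.64), Mgst1 (2.59) and Gpx8 (2.42), while Gpx4 (-0.06), Gstp1 (-0.17) and Fth1 (0.23) did not pass.

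Glycolysis and glucose transport genes fell in 11 of 21 members and rose in 4. Without 1 that passed only through the mutants and 1 only through the controls, 11 of 19 fell and 3 rose. Slc2a3, the neuronal glucose transporter gene, lay at 10.62, 10.52 and 11.45 in controls and at 9.14, 8.85 and 9.56 in mutants (-1.68 ± 0.24), and Pgam2 (-2.49), Eno2 (-1.77) and Aldoa (-1.16) fell. Hk2, an inducible hexokinase gene, lay at 3.83, 4.14 and 2.33 in controls and at 6.86, 6.38 and 6.40 in mutants (3.11 ± 0.38), and Slc16a1 (2.32), the lactate transporter gene, Slc2a1 (1.13), the glucose transporter gene of endothelium and glia, and Pfkfb3 (1.11) rose. Pgk1 (0.02), Ldhb (-0.07) and Aldoc (0.14) did not pass. In the citrate cycle list 6 of 30 rose, among them Pdk4 (2.35), Me1 (1.56), Idh2 (1.02) and Idh1 (1.01), and 4 fell, Got1 (-1.60), Ogdh (-1.08), Pcx (-0.83) and Got2 (-0.71). These shares, 20% and 13.3%, were under the background in both directions, and after median centring 7 fell.

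Oxidative phosphorylation subunits fell in 12 of 67 members (17.9%), under the background share, by small amounts: Ndufb2 (-0.73 ± 0.19), Atp5g1 (-0.68), Uqcr11 (-0.67), Ndufa4 (-0.67), Ndufs3 (-0.66) and Ndufv1 (-0.60). The number of falls was 3 without mutant mouse 1, 4 without mutant mouse 2, 6 with sex as a term and 21 after median centring. None of the 67 rose, but against the female control alone 11 did. Of these genes Atp5g1, Uqcr11, Ndufa4 and Ndufv1 each lost the call without at least mutant mouse 1, and Uqcr11 and Ndufa4 also lost it with sex as a term. Cox6a1 (-0.09), Cox6b1 (0.00) and Cox4i1 (-0.32) did not pass. Of 31 constitutive proteasome subunit genes 3 rose and 2 fell, none by over 0.66, and after median centring 0 rose and 7 fell.

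Of 29 cholesterol genes 6 rose and 5 fell, which is under the background in both directions, and against the female control alone the numbers were 10 and 8. Without 1 that passed the filter only through the mutants, 5 of 28 rose. Abca1, the exporter, lay at 8.13, 8.20 and 6.29 in controls and at 11.45, 11.47 and 10.90 in mutants (3.73 ± 0.43). Ch25h, which makes 25-hydroxycholesterol in activated macrophages, rose from under the percentile on all 3 control arrays, and Npc2 (1.93) and Srebf1 (1.78) rose. Cyp46a1, the neuronal enzyme that makes 24-hydroxycholesterol, lay at 10.86, 10.92 and 12.22 in controls and at 8.01, 8.20 and 9.37 in mutants (-2.81 ± 0.39). The synthesis genes Mvd (-0.99), Dhcr7 (-0.88) and Fdps (-0.78) and their regulator Srebf2 (-0.90) fell, and Hmgcs1 (-0.18) and Msmo1 (-0.13) did not pass. Mvd did not pass without control mouse 3 or any 1 of the mutants (highest adjusted p = 0.147), and 3 synthesis and turnover genes fell without mutant mouse 1 or 2.

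For 826 of the 8253 genes tested the 95% interval of the difference lay within 0.5 log2 of 0. The 5 of these with the highest levels were Rps29 (-0.10 ± 0.14), Mbp (0.07), Rpl13a (-0.08), the elongation factor gene Eef1a1 (-0.06 ± 0.12) and Rpl37a (0.02). Eef1a1 lay at 14.35, 14.44 and 14.43 in controls and at 14.36, 14.33 and 14.35 in mutants. This holds for the probe set with the highest level of each gene, and Mbp fell when its probe sets were averaged. A gene that did not pass and lies outside these 826 is not shown to be unchanged.

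Beside the effect at 9 weeks, which rests on other arrays, the effect at 13 weeks was further from 0 for most of the panel of 15 marker genes. The change between the ages passed in 18.4% of all genes tested and in 7 panel genes. Gfap went from a difference of 0.92 at 9 weeks to 5.89 (change 4.97 ± 0.43, adjusted p = 8.04e-06), Aif1, the microglial Iba1 gene, from 0.56 to 2.91 and Cdkn1a from -1.09 to 2.59. Ppp1r1b went from -0.20 to -2.36 (change -2.16 ± 0.48), Drd2 from -1.03 to -3.48, Penk from -0.58 to -1.65 and Tac1 from -0.57 to -1.56. Gpx6, with measured differences of -3.64 at 9 weeks and -4.40 at 13 weeks, had its mutants under the percentile at 13 weeks (change -0.76 ± 0.29, adjusted p = 0.0892). Gad1 and Mbp were within 0.07 of 0 at both ages. The count of panel genes was 4 without mutant mouse 1 or without mutant mouse 2 at 13 weeks.

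**Figure D5:**
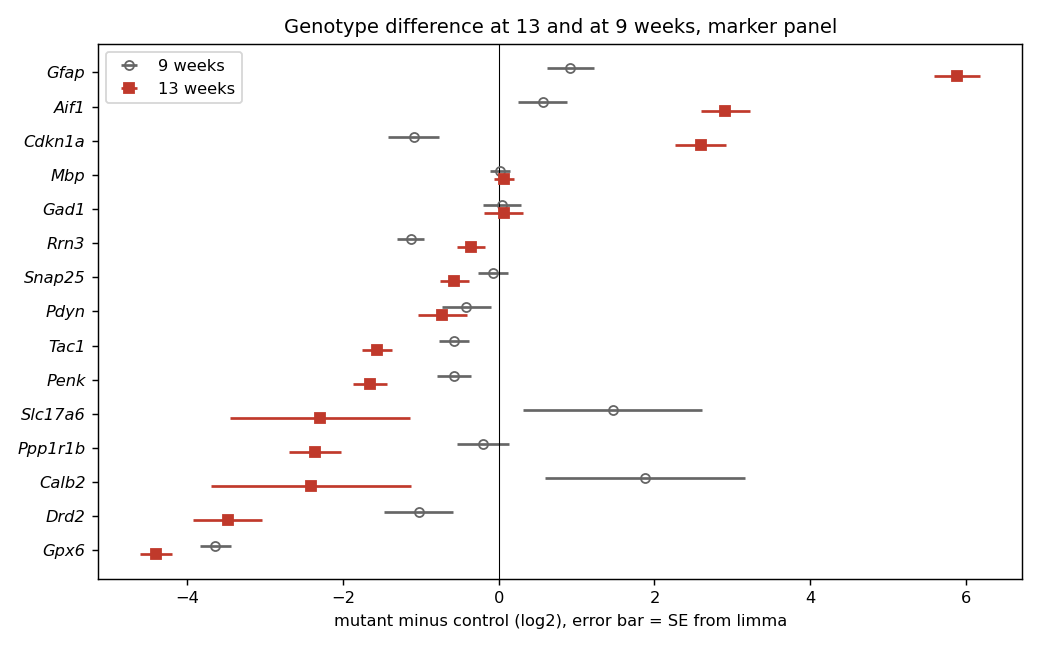
Mutant minus control (log2, horizontal axis) at 9 weeks (grey circles) and 13 weeks (red squares) for the 15 panel genes, with bars for the SE from limma. Gfap, Aif1 and Cdkn1a are higher at 13 weeks than at 9, Drd2, Ppp1r1b, Penk and Tac1 are lower, and the wide bars of Slc17a6 and Calb2 come with SEs of 1.15 and 1.29.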

How the data were processed

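Total RNA from the striatum was hybridised to Affymetrix arrays, and the authors deposited log2 values processed with GCRMA, per the submitters' processing notes, whose version is not given in the sources used here. Values in that table, of 22690 probe sets and 12 sample columns, ran from 1.09 to 15.48. Apart from 64 control probe sets, the platform annotation of GEO names 1 symbol for 20380, several for 691 and none for 1555, and only the first kind was used. Of the probe sets of 1 gene, that with the highest 12-array mean stood for it, and the gene was tested when above its array's 40th percentile (3.51 to 3.81) on at least 3 arrays, which kept 8253 of 12393 genes. The number of arrays limits the precision.

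A single linear model over all 12 arrays was fitted with limma 3.58.1 (lmFit, eBayes; R 4.3.3), with 1 coefficient per group and 8 residual degrees of freedom. Tests were two-sided with Benjamini-Hochberg adjustment over all genes tested, and "rose" and "fell" mean an adjusted p under 0.05. Errors are limma's SE. A fold is 2 to the power of the log2 difference, and "at least" replaces array values under the percentile by the percentile. The fit was tested on simulated data.

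The comparison, the members of the 54 lists, the naming rule and the alternatives were chosen with earlier results of these data known, and lists are described without a test. The rule named Rrn3, a marker panel, the 10 genes that rose most and the 10 that fell most, the 12 largest each way among genes above the percentile on all 6 arrays, up to 6 called and 3 uncalled members of each list, and 5 genes with narrow intervals. Outside this rule, members of counts of 5 or fewer, Xist, Eif2s3y, Apoe, Tyrobp, Trem2, C1qa, C1qb, B2m, Cx3cl1, Csf1r, Gas5, Mki67, Mdm2, Casp9, Atf4, Ddit3, Kl, Folr1, Il1b, Tnf, Il6, Ifnb1 and Ifng were singled out after their values were seen. Sex is not in the labels and was read from Xist and Eif2s3y. Alternatives were other normalizations, filters, probe set rules, priors, array weights, thresholds, the replicate number as a block, a term for sex, and each array left out. The 3 mutants against the female control are an alternative chosen after seeing the data.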

Additional observations from a re-analysis of the deposited data

Results flagged for a closer look

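For 7 genes of the marker panel the genotype effect at 13 weeks differed from that at 9 weeks by limma's interaction test. The change was 4.97 log2 for Gfap (adjusted p = 8.04e-06), 3.69 for Cdkn1a (adjusted p = 0.000152), 2.35 for Aif1 (adjusted p = 0.00332), -2.16 for Ppp1r1b (adjusted p = 0.00854), -2.45 for Drd2 (adjusted p = 0.0188), -0.99 for Tac1 (adjusted p = 0.027) and -1.08 for Penk (adjusted p = 0.0324). All 3 mutants at 13 weeks were female while 1 of 3 was female in each control group and among the mutants at 9 weeks, and with sex as a term 7 panel genes still passed.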

How the results depend on the processing

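Of the 278 named genes that passed, 247 kept the call under every alternative in which they were tested, other than the 2 stricter thresholds. The call was lost by 24 when 1 of the 6 arrays at 13 weeks was left out and by 11 with sex as a term, and 0 changed direction. A gene that failed the filter under an alternative was not tested there and was not counted as lost. Timp1, for example, was tested under 21 of these alternatives and Gfap under 26. Leaving out each of the 12 arrays in turn gave 2715 to 3948 calls in place of 3744, 471 to 1325 genes with an interval within 0.5 log2 of 0 in place of 826, and 4 to 9 panel genes that changed between the ages in place of 7. The number with narrow intervals was 4552 with no filter, 1329 when probe sets of 1 gene were averaged and 453 with sex as a term, and it was 1325 without control mouse 3 and 471 without mutant mouse 2. Requiring at least 1 log2 left 2145 calls, 1205 higher and 940 lower. Genes called lower numbered 2840 with every probe set as a row of the fit, 2786 with array weights and 1197 at an adjusted p under 0.01. With the stricter response element, 0.327% of all genes tested and 33.3% of the interferon-stimulated list had a match. Some genes that did not pass had a difference of the opposite sign under an alternative and passed there (adjusted p from 0.000691 for Cspg5 to 0.0489 for Tbk1): with the mean of probe sets for Fyn (0.35) and Mbp (-0.32), with array weights for Cspg5 (0.64), Fyn (0.24), Ncan (0.64) and Tbk1 (-0.31), and against the female control alone for Ccne2 (0.45), Jak2 (0.76), Plvap (-0.70), Vsnl1 (0.72) and Zic1 (0.81). Cspg5 lay at -0.36 without control mouse 2 and at 0.59 without control mouse 3, of which only the second passed (adjusted p = 0.468 and 0.00532). Apart from the count with no filter and the stricter thresholds, where the number of genes tested or the bar itself changed, the cause was not tested.

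With the replicate number as a block there were 3840 calls, of which 3628 were shared, 862 genes with narrow intervals and 7 panel genes, and the named genes Fos and Psmd11 lost their calls. Nothing in the labels says that mice of the same number shared a litter or a day. Across genes, the deviations from the group means of same-numbered mice correlated at 0.1, 0.12 and 0.18, while mutant mouse 2 correlated better with control mouse 1 (0.17) than with its own number, so the numbers were not taken to pair the mice. Array values under the percentile are compressed, which limits the size of the differences of dim genes.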
